A study of Canis lupus familiaris with 23 samples.

Results

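Organoids grown from the interfollicular epidermis of dogs were compared with the interfollicular epidermis itself in 4 of the 23 libraries of a study that established epidermal organoid cultures from dog skin. The 4 libraries were taken by their labels, and the comparison was chosen with earlier results of these data known. They are 1 library of later organoids (passages 3 to 6, called mid-term in the labels), 1 library of early organoids (passages 0 to 1) and 2 libraries of tissue, the skin epidermis between the hair follicles. Both organoid libraries hold bulk cells collected on day 7 of culture with an inhibitor of Tgf-beta signalling, so each difference between organoids and tissue includes the culture, its medium and the inhibitor. The comparison asks how far the cultured keratinocytes resemble the tissue they came from. A second comparison set the same difference against that of the other origin, with 5 libraries of organoids from hair follicles grown with the same inhibitor (2 later and 3 early) and 2 libraries of hair follicles in a mixture of growing and resting phases. The labels give no strain, age or sex, and do not say whether any of these libraries share a dog or a culture, so the p-values measure only the spread between libraries, which may be technical. Per the labels, the cells were sorted before RNA isolation. The gate of that sort is not given in the sources used here.

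The epidermis is renewed from a basal layer of dividing keratinocytes that make the keratins KRT5 and KRT14 and sit on the basement membrane through integrins and hemidesmosomes. Cells that leave this layer switch to the keratins KRT1 and KRT10 and to the desmosomal cadherins DSG1 and DSC1, and later build a cornified envelope of loricrin, involucrin and filaggrin sealed by lipids. After wounding, keratinocytes make another set of keratins, KRT6, KRT16 and KRT17, with S100 alarmins and proteases. RNA was measured by CEL-seq2, a method that reads barcoded transcript ends. In bulk RNA, fewer cells of a type and less RNA per cell of that type cannot be told apart.

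Deposited totals were 222051 counts for the later organoids and 474823 for the early organoids, against 335949 and 86301 for tissue replicates 1 and 2, at the low end of a range of 86301 to 4822410 over the series. Levels are given as CPM, a count relative to the total of its library, after TMM scaling between libraries (a trimmed mean of log ratios) unless called unscaled. A gene with 0 counts could stand at up to 18.2 CPM in the later and 5.83 CPM in the early organoids, and at up to 7.30 and 23.4 CPM in the tissue replicates (3 counts; these floors cover counting error only). Of the 9888 genes tested, 18.2% had 0 counts in the later and 8.48% in the early organoids, against 6.99% and 23.8% in tissue. The tests used edgeR's quasi-likelihood model over all 23 libraries with Benjamini-Hochberg adjustment, and genes with an adjusted p under 0.05 are those called here. Each organoid group here is 1 library and adds nothing to the estimated spread, so its p-values assume that it varies like the replicated groups. A gene could pass the filter on low counts through a single library in which it was high.

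The later organoid library stood apart from all others. In it, 219 entries had at least 10 counts and at least 4 times the highest unscaled CPM of the 21 libraries outside the interfollicular organoids. These entries, 76 provisional loci and 143 with a symbol, held 18.7% of the later library's counts. They held 4.96% of the early library's, against 1.67% in each tissue replicate and 0.997 to 1.82% over the 21 other libraries. The early organoids had 32 entries of their own by the same rule, 27 of them shared with the later library, and stood above all 21 other libraries for 192 of the 219. Each of the 21 other libraries, set against the remaining 20, had 0 to 6 such entries. Those 20 included replicates of the same group, while the later and early interfollicular organoids were not set against each other. The rule was thus stricter for the 21 others, and the numbers of entries are not like for like. The initiation factor gene EIF1 is an example, at 16864 CPM in the later and 3615 CPM in the early organoids, against 294 and 249 CPM in tissue, and 581 to 988 CPM in follicular organoids. Among the 154 entries with at least 10 counts in the early library, the later library's unscaled CPM was a median of 4.06 times the early one's (quartiles 3.22 and 5.47, range 1.10 to 12.6). Of the 219 entries, 218 were tested. What sets them apart was not tested, and counts are given with and without them.

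**Figure D1:**
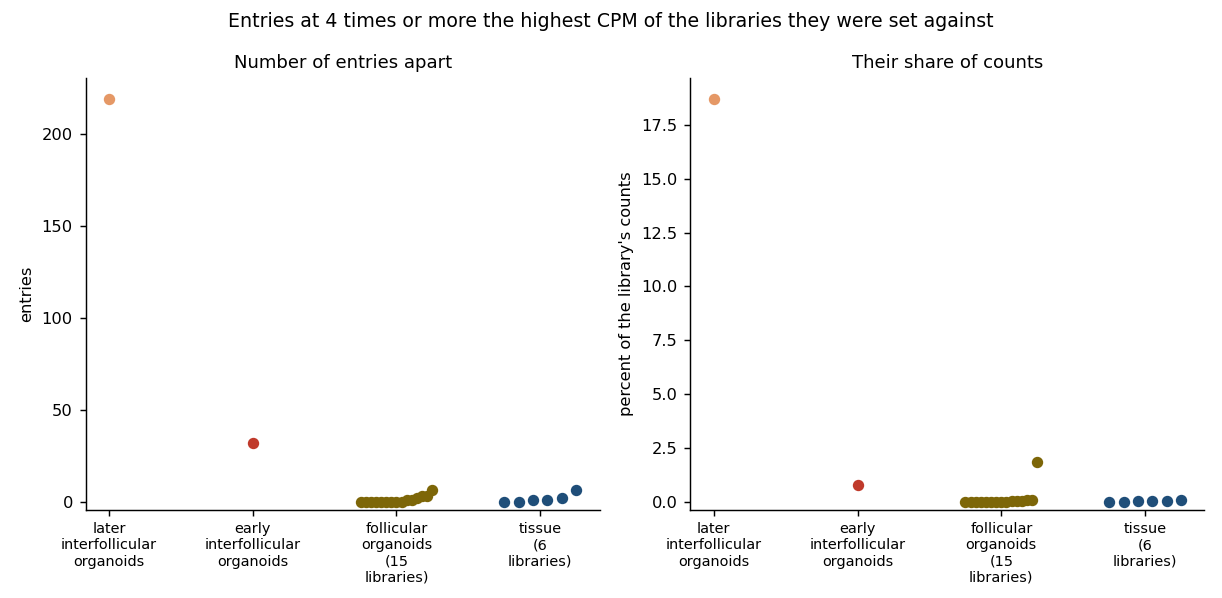
Entries that stand apart in each of the 23 libraries, 1 point per library. The left panel gives the number of entries with at least 10 counts and at least 4 times the highest unscaled CPM of the libraries they were set against, and the right panel the percentage of the library's own counts that those entries hold. The later interfollicular organoids lie at 219 entries and 18.7%, and the early ones at 32 entries, against 0 to 6 entries in each of the 21 others. The 21 others were set against replicates of their own groups too. The later and early interfollicular organoids were not set against each other.

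Against tissue, the 2 organoid libraries together had 665 genes higher and 445 lower, 11.2% of the 9888 genes tested (6.73% higher and 4.5% lower). In 659 of the higher and 425 of the lower genes, the organoid libraries lay both above or both below the tissue libraries. Such a lack of overlap held for 25.4% of all tested genes above and 21.4% below. Nearly every called gene had it, so where it is stated below it adds little to a call. By itself, the later library had 643 genes higher (6.5% of genes tested) and 103 lower (1.04%) than tissue, 7.54% in all. The early library had 435 higher (4.4%) and 274 lower (2.77%), 7.17% in all. The entries that stand apart made up 185 of the genes higher in the pooled comparison, 215 of those higher in the later library and 76 of those higher in the early library, and none of the genes called lower. Refitted without these entries, the pooled comparison called 459 genes higher and 383 lower. The split also moved with the scaling, which shifts the median change of all genes, at -0.14 log2 with TMM. With DESeq2's size factors that median was -0.29, and the pooled comparison called 561 genes higher and 532 lower. With library totals it was -0.70, and 389 genes were higher and 1111 lower. The early library by itself then had 276 higher and 350 lower with size factors and 243 higher and 377 lower with totals, and the later library 395 higher and 503 lower with totals. DESeq2's own test gave 356 higher and 391 lower for the early library. Tissue replicate 1 holds most of the tissue counts, and without it the pooled comparison called 288 genes higher of 414 in all. Without the later library 428 genes were higher and 273 lower, and without the early library 642 higher and 103 lower. Log2 changes below are organoids over tissue, pooled over the 2 organoid libraries unless one is named. Where one side of a gene holds 1 to 3 counts, the ratio of summed scaled counts is given with its exact 95% interval, which covers counting error only. Where a side holds 0 counts, the fold is a bound against 3 counts over its libraries. The count of the other side enters such a bound as observed, without its counting error, so "at least" is not a 95% limit. The 36 gene lists described below hold 843 different genes. Of these, 769 were in the files, and 62 of the 622 tested were called higher and 44 lower. A list is described by its calls and its median log2 change, with a second, bounded median where genes at 0 counts on one side are set at their bound. The calls of every list are to be read beside the 6.73% higher and 4.5% lower of all tested genes. The other settings are 15, namely other scalings, filters, tests and choices of libraries, a replicate block, thinning to the shallowest library, and each of the 4 libraries left out in turn.

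KRT10, DSG1 and other genes of the suprabasal layers stood far lower in the organoids, while the basal cadherin CDH3 and the glucose transporter SLC2A1 stood higher. The level of CDH3, P-cadherin of basal keratinocytes, was 437 CPM in the later and 689.5 CPM in the early organoids, against 48.6 and 93.5 CPM in tissue (log2 change 3.05 ± 0.52 SE, adjusted p = 0.00054). SLC2A1 was at 1395 CPM in the later and 425 CPM in the early organoids, against 26.8 and 31.2 CPM in tissue (log2 change 4.76 ± 0.80 SE, adjusted p = 0.00052). KRT10 was at 1177 CPM in the later and 249 CPM in the early organoids, against 8370.5 and 13281 CPM in tissue (log2 change -4.32 ± 0.73 SE, adjusted p = 0.00050). DSG1, desmoglein 1, was at 127 CPM in the later and 105 CPM in the early organoids, against 1479 and 787 CPM in tissue (log2 change -3.30 ± 0.53 SE, adjusted p = 0.00035). For each of the 4 genes the organoid and tissue libraries did not overlap, and each organoid library passed the test by itself. The lack of overlap was shared by 659 of the 665 genes called higher and 425 of the 445 called lower. The change of CDH3 was 2.72 in the later organoids (adjusted p = 0.0037) and 3.38 in the early organoids (adjusted p = 0.0013), and that of SLC2A1 was 5.62 in the later organoids (adjusted p = 0.00014) and 3.91 in the early organoids (adjusted p = 0.0097). The change of KRT10 was -3.20 in the later organoids (adjusted p = 0.035) and -5.44 in the early organoids (adjusted p = 0.0040), and that of DSG1 was -3.16 in the later organoids (adjusted p = 0.0062) and -3.44 in the early organoids (adjusted p = 0.0058). All 4 calls were kept in each of the 15 other settings tried. These settings refit the same data, and the 4 genes were chosen with earlier results of these data known. Their calls are therefore not independent support.

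**Figure D2:**
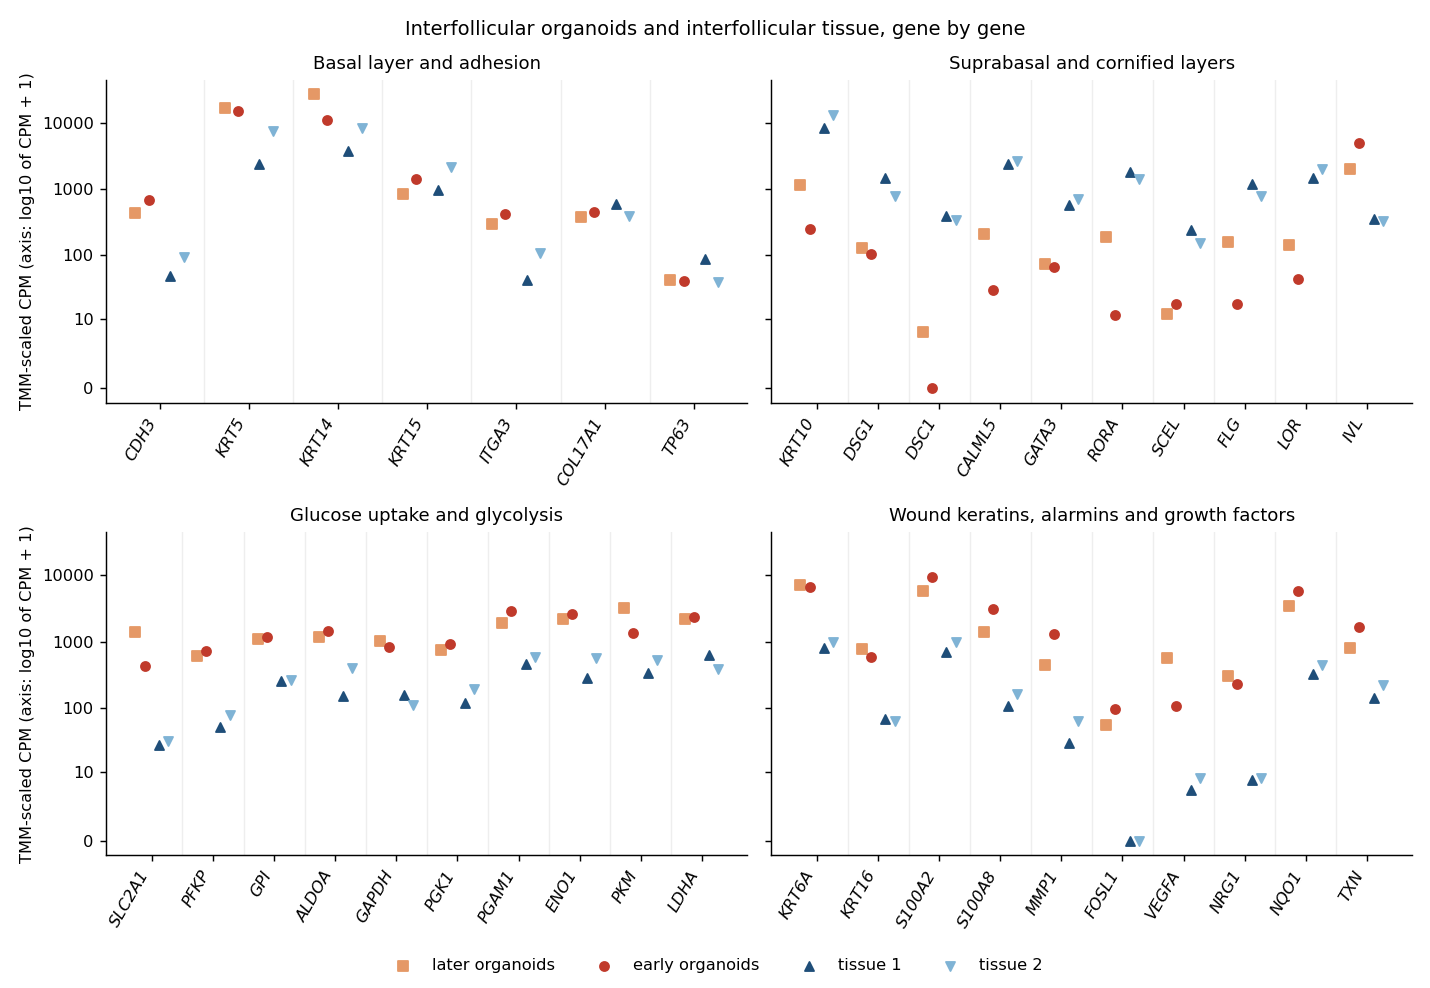
TMM-scaled CPM of named genes in each of the 4 libraries, on a log axis (log10 of CPM + 1), with the later organoids as squares and the early organoids as circles left of the tissue replicates, drawn as triangles. KRT10 lies at 1177 and 249 CPM in the later and early organoids, against 8370.5 and 13281 CPM in tissue, and KRT6A at 7061 and 6662 CPM in the later and early organoids, against 815 and 997 CPM in tissue.

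Of 10 tested basal keratins and regulators, CDH3 and KRT5 were called higher and none lower (median log2 change -0.10, against -0.14 over all tested genes), beside 6.73% higher and 4.5% lower of all tested genes. The list had 1 to 3 higher and 0 to 1 lower in the other settings. KRT5 was at 16573 CPM in the later and 15257 CPM in the early organoids, against 2386 and 7431 CPM in tissue (log2 change 1.70 ± 0.55 SE, adjusted p = 0.048). KRT14, its partner keratin, was at 26886 CPM in the later and 11168 CPM in the early organoids, against 3755 and 8335 CPM in tissue. It did not pass in the pooled comparison (log2 change 1.52, adjusted p = 0.062), while the later library passed by itself (log2 change 2.15, adjusted p = 0.027). KRT15 was at 855 and 1422 CPM in the later and early organoids, against 985 and 2149.9 CPM in tissue. TP63, the master transcription factor of stratified epithelia, was at 42.5 and 40.8 CPM in the later and early organoids, against 87.5 and 38.9 CPM in tissue. Neither passed the test. Among 21 genes of hemidesmosomes and basement membrane adhesion, 1 was called higher and 1 lower (median 0.28, bounded 0.17, and 0 to 2 higher and 0 to 2 lower in the other settings). ITGA3, a laminin-binding integrin subunit, was at 303 CPM in the later and 416 CPM in the early organoids, against 41.3 and 109 CPM in tissue (log2 change 2.38 ± 0.59 SE, adjusted p = 0.012). DST, whose epithelial form is a plaque protein of hemidesmosomes, was at 18.2 CPM in the later and 15.5 CPM in the early organoids, against 87.5 and 62.3 CPM in tissue (log2 change -2.20 ± 0.64 SE, adjusted p = 0.029). ITGA6 was at 224 and 616 CPM in the later and early organoids, against 272 and 397 CPM in tissue, without passing the test. ITGB4 had 0 counts in all 4 libraries. Over the 5 follicular organoid libraries it had 30, where ITGA6 had 6271, so its reads were few there too. Of the 8 basal markers checked, KRT5, KRT14, KRT15, COL17A1, ITGA6, TP63 and CDH3 were detected in every one of the 4 libraries. For KRT5, ITGA3 and DST the organoid and tissue libraries did not overlap. Nor did they for 659 of the 665 genes called higher and 425 of the 445 called lower. Leaving out 1 library ended some of these calls, and the highest adjusted p was then 0.341 for KRT5 and 0.263 for DST without tissue replicate 1, the later organoids or the early organoids. It was 0.206 for ITGA3 without tissue replicate 1 or the early organoids. Of the settings that keep all 4 libraries and their depth, 6 ended the call of KRT5 (adjusted p up to 0.210, both other scalings included). Of the same settings, 1 each ended that of ITGA3 (adjusted p up to 0.055, library totals) and that of DST (adjusted p up to 0.087).

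Of 24 tested genes of suprabasal differentiation, 7 were lower in the organoids and 2 higher, with a median log2 change of -1.80, and 0 to 2 higher and 4 to 14 lower in the other settings. By library the calls were 2 higher and 4 lower in the later organoids and 1 higher and 7 lower in the early organoids. DSC1, the desmosomal cadherin paired with DSG1, was at 6.07 CPM in the later and 0 CPM in the early organoids, against 396 and 343 CPM in tissue (261-fold lower, counting interval 46.3 to 10350.0, adjusted p = 0.00025). CALML5, a calcium-binding protein of the upper layers, was at 212 CPM in the later and 29.1 CPM in the early organoids, against 2405 and 2687 CPM in tissue (log2 change -5.01 ± 1.08 SE, adjusted p = 0.0042). It passed in the early library and not in the later one (adjusted p = 0.128). The transcription factor GATA3 was at 72.8 CPM in the later and 66.0 CPM in the early organoids, against 584 and 717 CPM in tissue (log2 change -3.22 ± 0.59 SE, adjusted p = 0.0010). The nuclear receptor RORA was at 188 CPM in the later and 11.7 CPM in the early organoids, against 1807 and 1418 CPM in tissue (log2 change -5.10 ± 0.84 SE, adjusted p = 0.00042), with an adjusted p of 0.064 in the later library alone. PRDM1, a repressor active in terminal differentiation, was at 54.6 and 7.77 CPM in the later and early organoids, against 189.7 and 77.9 CPM in tissue (log2 change -2.78, adjusted p = 0.026). Of the members called higher, KLF4 is a transcription factor linked to keratinocyte differentiation. It was at 655 CPM in the later and 194 CPM in the early organoids, against 112 and 125 CPM in tissue (log2 change 1.61, adjusted p = 0.0078). KLF4 passed in the later library by itself (log2 change 2.48) and not in the early one (0.73). KRTDAP, a small secreted protein of suprabasal cells, did not pass (758 and 814 CPM in the later and early organoids, against 2522 and 2173 CPM in tissue, log2 change -1.58, adjusted p = 0.157). KRT1 was at no more than 6.07 CPM in either organoid library, against 12.2 and 62.3 CPM in tissue. It had only 5 and 8 counts in tissue, where KRT10 had 3442 and 1705, so its comparison rests on few counts. In each gene of this list called here, the organoid libraries lay both on one side of the tissue libraries. So they did in most called genes (659 of 665 higher and 425 of 445 lower). With library totals as the scale, 14 members were lower. With 1 library left out, the highest adjusted p where a call was lost was 0.128 for CALML5 and 0.065 for RORA without the early organoids. It was 0.453 for PRDM1 without tissue replicate 1 or the early organoids, and 0.308 for KLF4 without tissue replicate 1 or the later organoids. Among settings with all 4 libraries at full depth, 2 ended the call of KLF4 (adjusted p up to 0.149, library totals included). In this group, 1 ended that of PRDM1 (adjusted p up to 0.053).

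Of 25 tested genes of the cornified envelope and its proteases, 6 were lower in the organoids and 0 higher, with a median log2 change of -3.69, bounded -3.16, and 0 to 2 higher and 3 to 16 lower in the other settings. By library the calls were 0 higher and 3 lower in the later organoids and 0 higher and 6 lower in the early organoids. SCEL, the envelope precursor sciellin, was at 12.1 CPM in the later and 17.5 CPM in the early organoids, against 241 and 156 CPM in tissue (log2 change -3.79 ± 0.66 SE, adjusted p = 0.00070). SERPINB7, a protease inhibitor, was at 0 CPM in the later and 1.94 CPM in the early organoids, against 119 and 101 CPM in tissue (78.1-fold lower, counting interval 13.5 to 3134, adjusted p = 0.00065). HAL, the histidase that turns histidine from filaggrin into urocanic acid, was at 0 CPM in the later and 3.88 CPM in the early organoids, against 112 and 70.1 CPM in tissue (34.6-fold lower, counting interval 9.14 to 293, adjusted p = 0.0013). The crosslinking enzyme TGM3 was at 12.1 and 1.94 CPM in the later and early organoids, against 48.6 and 109 CPM in tissue (14.3-fold lower, counting interval 4.49 to 72.7, adjusted p = 0.024). KPRP, a proline-rich keratinocyte protein, was at 36.4 and 5.83 CPM in the later and early organoids, against 603 and 148 CPM in tissue (log2 change -4.73, adjusted p = 0.027). Filaggrin (FLG) was at 158 CPM in the later and 17.5 CPM in the early organoids, against 1214 and 795 CPM in tissue (log2 change -4.26 ± 1.24 SE, adjusted p = 0.031), but it passed in neither library by itself (adjusted p = 0.354 in the later and 0.056 in the early organoids). Loricrin and involucrin, both substrates of envelope crosslinking, did not pass the test, with values that point opposite ways. LOR was at 146 CPM in the later and 42.7 CPM in the early organoids, against 1493 and 1994 CPM in tissue. IVL was at 2044 CPM in the later and 4902 CPM in the early organoids, against 355 and 335 CPM in tissue. The organoid libraries lay below both tissue libraries in each of the 6 called genes, as in 425 of all 445 genes called lower. With library totals 12 members were lower, and after thinning the 4 libraries to the shallowest 3 were. Calls lost with 1 library left out had a highest adjusted p of 0.308 for TGM3 without tissue replicate 2 or the early organoids. It was 0.309 for KPRP without tissue replicate 1, the later organoids or the early organoids, and 0.355 for FLG without tissue replicate 1, tissue replicate 2, the later organoids or the early organoids. Of the settings without a left-out library or thinning, 1 ended the call of FLG (adjusted p up to 0.059).

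Of 16 desmosomal genes, DSG1, DSC1 and desmoplakin were lower and CTNNB1 was higher (median -0.49, and 0 to 1 higher and 2 to 4 lower in the other settings). DSP was at 1140.5 CPM in the later and 437 CPM in the early organoids, against 2186 and 2687 CPM in tissue (log2 change -1.79 ± 0.43 SE, adjusted p = 0.010). CTNNB1, beta-catenin, is listed with the junction genes and also acts in Wnt signalling. It was at 619 CPM in the later and 122 CPM in the early organoids, against 134 and 31.2 CPM in tissue (log2 change 1.58, adjusted p = 0.023). The early organoids lay between the tissue replicates, and the change was 2.74 in the later organoids (adjusted p = 0.00081) and 0.41 in the early organoids (adjusted p = 0.659). Of 29 genes of the epidermal lipid barrier, 2 were lower and 0 higher (median -1.60, bounded -1.17, and 0 to 1 higher and 0 to 8 lower in the other settings). The lipase gene LIPM was at 6.07 and 0 CPM in the later and early organoids, against 31.6 and 38.9 CPM in tissue (22.7-fold lower, counting interval 3.58 to 945, adjusted p = 0.011). SPTLC3, a subunit of the enzyme that starts sphingolipid synthesis, was at 0 and 7.77 CPM in the later and early organoids, against 46.2 and 38.9 CPM in tissue (log2 change -5.57, adjusted p = 0.022). By library the lipid list had 0 higher and 0 lower in the later organoids and 0 higher and 2 lower in the early organoids. Where leaving out 1 library ended a call, the highest adjusted p was 0.280 for DSP without tissue replicate 2 or the early organoids. It was 0.660 for CTNNB1 without tissue replicate 2 or the later organoids, 0.302 for LIPM without tissue replicate 1 or the early organoids, and 0.166 for SPTLC3 without tissue replicate 1, the later organoids or the early organoids. Of the settings with all 4 libraries unthinned, 2 ended the call of CTNNB1 (adjusted p up to 0.103, library totals included). Among these settings, 1 each ended that of DSP (adjusted p up to 0.144) and that of SPTLC3 (adjusted p up to 0.059).

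**Figure D3:**
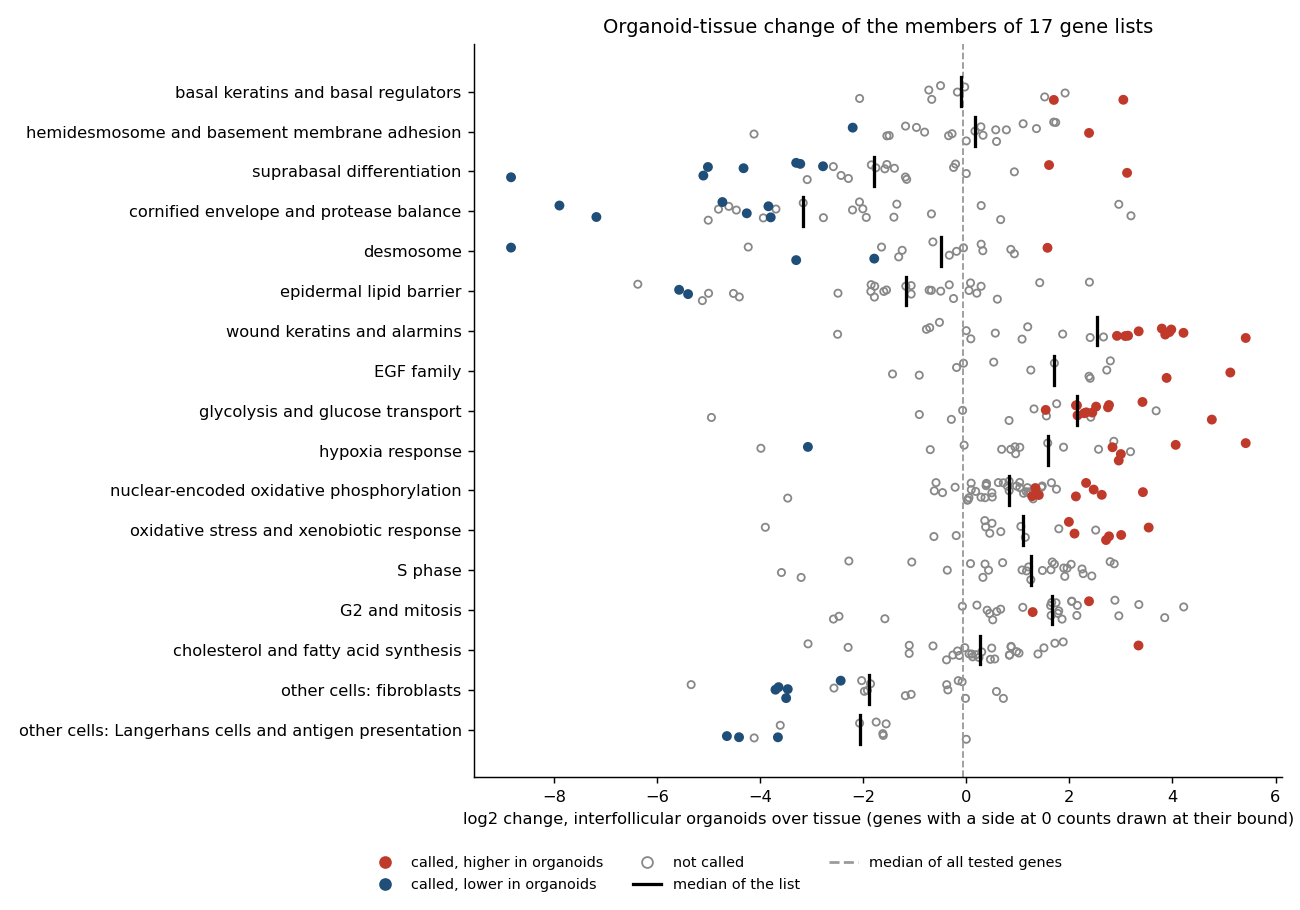
Log2 change of each tested member of 17 gene lists, organoids over tissue, 1 point per gene, with a bar at the median of each list and a dashed line at the median of all tested genes, at -0.06 with the same bounds. Filled points are genes called, and a gene with a side at 0 counts is drawn at its bound, or at 0 where no bound could be given. The wound list has 10 members higher and 0 lower, the glycolysis list 12 and 0, and the cornified envelope list 0 and 6.

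Of 22 tested genes of the wound response, 10 were higher in the organoids and 0 lower, with a median log2 change of 3.11, bounded 2.53, and 2 to 12 higher and 0 lower in the other settings. The later library called 8 of them by itself and the early library 10. KRT6A was at 7061 CPM in the later and 6662 CPM in the early organoids, against 815 and 997 CPM in tissue (log2 change 2.92 ± 0.51 SE, adjusted p = 0.00070). KRT16 was at 764 and 587 CPM in the later and early organoids, against 68.1 and 62.3 CPM in tissue (log2 change 3.35, adjusted p = 0.014). KRT17 was at 1274 and 583 CPM in the later and early organoids, against 178 and 304 CPM in tissue and did not pass (adjusted p = 0.061). The calcium-binding protein S100A2 was at 5818 CPM in the later and 9552 CPM in the early organoids, against 710.1 and 989 CPM in tissue (log2 change 3.14 ± 0.48 SE, adjusted p = 0.00021). The alarmin subunits S100A8 and S100A9 are joined in calprotectin. S100A8 was at 1389 and 3104 CPM in the later and early organoids, against 107 and 164 CPM in tissue (log2 change 3.98, adjusted p = 0.0041). S100A9 was at 127 and 406 CPM in the later and early organoids, against 12.2 and 23.4 CPM in tissue (log2 change 3.86, adjusted p = 0.040). S100A12, a related alarmin, was at 1832 and 3601 CPM in the later and early organoids, against 139 and 241 CPM in tissue (log2 change 3.79, adjusted p = 0.028). The collagenase gene MMP1 was at 449 CPM in the later and 1311 CPM in the early organoids, against 29.2 and 62.3 CPM in tissue (log2 change 4.21 ± 0.88 SE, adjusted p = 0.0033). FOSL1, an AP-1 subunit, had 9 counts in the later and 49 in the early organoids, against 0 and 0 in tissue, at least 15.3-fold higher. Keratin copies are near-identical in places, so reads of KRT6A, KRT16 and KRT17 may be divided between paralogs. Both organoid libraries lay above both tissue libraries in every one of these genes, as in 659 of all 665 genes called higher. The list count was 2 without tissue replicate 1, 6 without tissue replicate 2 and 6 after thinning. Leaving out 1 library ended some of these calls, and the highest adjusted p was then 0.089 for S100A8, 0.097 for MMP1 and 0.052 for FOSL1 without tissue replicate 1. It was 0.310 for S100A9 and 0.232 for S100A12 without tissue replicate 1, tissue replicate 2 or the early organoids, and 0.135 for KRT16 without tissue replicate 1 or tissue replicate 2. Of the settings that keep all 4 libraries and their depth, 2 ended the call of S100A9 (adjusted p up to 0.069, both other scalings). Of the same settings, 1 ended that of S100A12 (adjusted p up to 0.051, library totals).

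In the EGF family list, 2 of 13 were higher and 0 lower (median 2.38, bounded 1.71, and 2 to 6 higher and 0 to 1 lower in the other settings). NRG1, neuregulin 1, was at 303 CPM in the later and 227 CPM in the early organoids, against 7.30 and 7.79 CPM in tissue (log2 change 5.12 ± 0.60 SE, adjusted p = 1.53e-05). PHLDA1, a target of growth factor signalling, was at 133 CPM in the later and 606 CPM in the early organoids, against 24.3 and 7.79 CPM in tissue (log2 change 3.89 ± 0.68 SE, adjusted p = 0.00067). The ligand AREG, amphiregulin, was at 12.1 and 117 CPM in the later and early organoids, against 9.73 and 0 CPM in tissue, without passing the test in the pooled comparison.

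Genes of glycolysis were higher in the organoids in 12 of 22 tested members and lower in none, with a median log2 change of 2.22, bounded 2.15, and each organoid library by itself called 10. The list had 4 to 14 higher and 0 lower in the other settings. PFKP, a subunit of the rate-setting phosphofructokinase, was at 607 CPM in the later and 717 CPM in the early organoids, against 51.1 and 77.9 CPM in tissue (log2 change 3.42 ± 0.55 SE, adjusted p = 0.00034). GAPDH was at 1019 CPM in the later and 831 CPM in the early organoids, against 158 and 109 CPM in tissue (log2 change 2.75 ± 0.49 SE, adjusted p = 0.00075). ENO1, the enolase gene, was at 2166 and 2657 CPM in the later and early organoids, against 282 and 569 CPM in tissue (log2 change 2.52, adjusted p = 0.0027). Chosen after their values were seen, other steps of the pathway passed the test too. PGAM1, a mutase, was at 1911 and 2857 CPM in the later and early organoids, against 467 and 584 CPM in tissue (log2 change 2.16, adjusted p = 0.0028). GPI, an isomerase, was at 1079.8 and 1171 CPM in the later and early organoids, against 250.5 and 265 CPM in tissue (log2 change 2.13, adjusted p = 0.0035). LDHA, which makes lactate, was at 2189.9 and 2359.9 CPM in the later and early organoids, against 627 and 389 CPM in tissue (log2 change 2.15, adjusted p = 0.0075). SLC16A1, which carries lactate across the membrane, was at 60.7 and 93.2 CPM in the later and early organoids, against 12.2 and 7.79 CPM in tissue (log2 change 2.77, adjusted p = 0.014). In all of these the organoid libraries lay above both tissue libraries, as in 659 of all 665 genes called higher. PFKL, another phosphofructokinase subunit, had 5 and 6 counts in the later and early organoids, against 0 in both tissue replicates (at least 2.91-fold higher, adjusted p = 0.013). The count of glycolysis genes was 4 without tissue replicate 1 and 8 after thinning. In the hypoxia list 5 of 19 were higher and 1 lower (median 1.58, and 1 to 9 higher and 0 to 1 lower in the other settings). VEGFA, an angiogenic growth factor, was at 576 CPM in the later and 105 CPM in the early organoids, against 4.86 and 7.79 CPM in tissue (39.4-fold higher, counting interval 13.2 to 193, adjusted p = 0.0030). BNIP3, a mitophagy receptor, was at 279 and 524 CPM in the later and early organoids, against 41.3 and 62.3 CPM in tissue (log2 change 2.96, adjusted p = 0.036). ERO1A, an oxidase of the endoplasmic reticulum, was at 36.4 and 40.8 CPM in the later and early organoids, against 0 and 0 CPM in tissue, at least 7.14-fold higher. CA12, a carbonic anhydrase, was at 169.9 and 289 CPM in the later and early organoids, against 12.2 and 15.6 CPM in tissue (log2 change 4.06, adjusted p = 0.00094). KDM3A, a histone demethylase that is also induced by low oxygen, was lower, at 6.07 and 1.94 CPM in the later and early organoids, against 29.2 and 31.2 CPM in tissue (10.1-fold lower, counting interval 2.37 to 90.3, adjusted p = 0.035). With 1 library left out, the highest adjusted p where a call was lost was 0.067 for ENO1, 0.051 for PGAM1, 0.052 for GPI, 0.108 for VEGFA and 0.147 for ERO1A without tissue replicate 1. It was 0.272 for BNIP3 and 0.335 for KDM3A without tissue replicate 1, tissue replicate 2 or the early organoids, 0.063 for LDHA without tissue replicate 2, 0.136 for SLC16A1 without tissue replicate 1 or the early organoids, and 0.235 for PFKL without tissue replicate 1 or the later organoids. Among settings with all 4 libraries at full depth, 2 each ended the call of BNIP3 (adjusted p up to 0.081, both other scalings) and that of KDM3A (adjusted p up to 0.092). In this group, 1 each ended that of PGAM1 (adjusted p up to 0.054), that of GPI (adjusted p up to 0.064), that of LDHA (adjusted p up to 0.059) and that of PFKL (adjusted p up to 0.090).

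Nuclear genes of oxidative phosphorylation were higher in 8 of 45 members and lower in none (median 0.83, and 2 to 13 higher and 0 to 1 lower in the other settings). COX5A, a subunit of cytochrome c oxidase, was at 728 CPM in the later and 460.3 CPM in the early organoids, against 129 and 70.1 CPM in tissue (log2 change 2.47 ± 0.41 SE, adjusted p = 0.00044). ATP5G3, a subunit of ATP synthase, was at 6928 CPM in the later and 1651 CPM in the early organoids, against 323 and 304 CPM in tissue (log2 change 3.43 ± 0.40 SE, adjusted p = 1.53e-05) and belongs to the entries that stand apart in the later library. Without tissue replicate 1 the list count was 3, and with library totals it was 4 higher and 1 lower. None of 13 mitochondrially encoded genes was called (median 0.58, and 0 to 1 higher and 0 lower in the other settings), and the mitochondrial share of counts was 12.4% in the later and 8.12% in the early organoids, against 13.4% and 10.6% in tissue. In the oxidative stress list 6 of 18 were higher and 0 lower (median 1.10, and 3 to 8 higher and 0 to 1 lower in the other settings). NQO1, a quinone reductase, was at 3427 CPM in the later and 5790.1 CPM in the early organoids, against 328 and 444 CPM in tissue (log2 change 3.54 ± 0.58 SE, adjusted p = 0.00042). TXN, thioredoxin, was at 795 and 1667 CPM in the later and early organoids, against 141 and 218 CPM in tissue (log2 change 2.71, adjusted p = 0.00036). The metal-binding metallothionein gene MT2A was at 576 and 1583 CPM in the later and early organoids, against 146 and 132 CPM in tissue (log2 change 2.77, adjusted p = 0.0015). Its relative MT1E was at 479 and 1066 CPM in the later and early organoids, against 102 and 70.1 CPM in tissue (log2 change 3.01, adjusted p = 0.015). Calls lost with 1 library left out had a highest adjusted p of 0.110 for MT1E without tissue replicate 1, tissue replicate 2 or the early organoids.

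Of 27 genes of S phase none was called (median 1.67, bounded 1.25, and 0 to 2 higher and 0 lower in the other settings), with PCNA, the DNA polymerase clamp, at 115 and 136 CPM in the later and early organoids, against 60.8 and 46.7 CPM in tissue (log2 change 1.17, adjusted p = 0.402). In the list of G2 and mitosis 2 of 29 were higher and 0 lower (median 1.78, bounded 1.66, and 0 to 9 higher and 0 lower in the other settings). This count is near the 6.73% called higher over all tested genes. CKS2, a subunit of the cyclin-dependent kinases, was at 169.9 CPM in the later and 305 CPM in the early organoids, against 46.2 and 38.9 CPM in tissue (log2 change 2.38 ± 0.71 SE, adjusted p = 0.033). NUSAP1, a spindle protein, was at 127 and 221 CPM in the later and early organoids, against 87.5 and 38.9 CPM in tissue (log2 change 1.29, adjusted p = 0.048). TOP2A, a topoisomerase of dividing cells, was at 18.2 and 99.1 CPM in the later and early organoids, against 43.8 and 23.4 CPM in tissue and was not called. MKI67 had 1 count in the early organoids and was not tested. Over the 5 follicular organoid libraries it had 56 counts, where TOP2A had 849, so its reads were few there too. Among 12 CDK inhibitors and D cyclins only SFN, the epithelial 14-3-3 sigma, was called, at 5005 and 3549 CPM in the later and early organoids, against 936 and 1433 CPM in tissue (log2 change 1.84, adjusted p = 0.030; list median 0.33, and 0 to 2 higher and 0 lower in the other settings). Of 30 genes of cholesterol and fatty acid synthesis only the desaturase gene FADS2 was called, at 42.5 and 33.0 CPM in the later and early organoids, against 4.86 and 0 CPM in tissue (9.53-fold higher, counting interval 2.37 to 83.2, adjusted p = 0.034; list median 0.27, and 0 to 2 higher and 0 lower in the other settings). Where leaving out 1 library ended a call, the highest adjusted p was 0.203 for CKS2 without tissue replicate 1, tissue replicate 2 or the early organoids. It was 0.367 for NUSAP1 without tissue replicate 2 or the early organoids, 0.226 for SFN without tissue replicate 1, tissue replicate 2 or the later organoids, and 0.174 for FADS2 without tissue replicate 1, tissue replicate 2, the later organoids or the early organoids. Of the settings with all 4 libraries unthinned, 7 ended the call of NUSAP1 (adjusted p up to 0.335, both other scalings included). Among these settings, 3 each ended that of SFN (adjusted p up to 0.130, library totals included) and that of FADS2 (adjusted p up to 0.077, library totals included), and 2 ended that of CKS2 (adjusted p up to 0.080, library totals included).

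The organoids were grown with a Tgf-beta inhibitor, and the tissue was taken uncultured. Of 28 Tgf-beta response genes 1 was higher and 3 lower (median -0.77, bounded -0.70, and 0 to 2 higher and 1 to 6 lower in the other settings), and by library the calls were 2 higher and 1 lower in the later organoids and 0 higher and 4 lower in the early organoids. LTBP1, which binds latent Tgf-beta, was higher at 91.0 and 38.8 CPM in the later and early organoids, against 2.43 and 15.6 CPM in tissue (9.26-fold higher, counting interval 2.92 to 47.1, adjusted p = 0.013). Vimentin (VIM), an intermediate filament protein of mesenchymal and some immune cells, was lower at 42.5 CPM in the later and 13.6 CPM in the early organoids, against 314 and 210.3 CPM in tissue (log2 change -3.46 ± 0.62 SE, adjusted p = 0.00083). The matrix protein gene THBS1 was at 54.6 and 5.83 CPM in the later and early organoids, against 285 and 31.2 CPM in tissue (log2 change -3.27, adjusted p = 0.044), with the later organoids above tissue replicate 2. The co-receptor gene TGFBR3 was at 42.5 and 23.3 CPM in the later and early organoids, against 129 and 77.9 CPM in tissue (log2 change -1.78, adjusted p = 0.045). Fibroblasts also make VIM and THBS1, and fibroblast markers were lower in the same organoids, as given below. The part of fibroblasts in these changes was not tested. In the BMP list 1 of 12 was lower, the BMP effector SMAD5 at 54.6 and 29.1 CPM in the later and early organoids, against 173 and 70.1 CPM in tissue (log2 change -1.70, adjusted p = 0.026; list median -0.48, and 0 to 2 higher and 0 to 2 lower in the other settings). Of 20 Wnt and R-spondin genes 1 was higher and 1 lower (median -0.48, and 0 to 1 higher and 1 to 2 lower in the other settings). These counts are near the shares over all tested genes (6.73% higher and 4.5% lower). APCDD1, a Wnt inhibitor at the membrane, was at 42.5 CPM in the later and 11.7 CPM in the early organoids, against 260.2 and 203 CPM in tissue (log2 change -3.39 ± 0.51 SE, adjusted p = 0.00018). DKK3 was at 291 and 206 CPM in the later and early organoids, against 73.0 and 109 CPM in tissue (log2 change 1.48, adjusted p = 0.032). Leaving out 1 library ended some of these calls, and the highest adjusted p was then 0.318 for LTBP1 and 0.261 for DKK3 without tissue replicate 1 or the later organoids. It was 0.873 for THBS1 and 0.514 for SMAD5 without tissue replicate 1 or the early organoids, and 0.378 for TGFBR3 without tissue replicate 1, tissue replicate 2, the later organoids or the early organoids. Of the settings that keep all 4 libraries and their depth, 3 each ended the call of THBS1 (adjusted p up to 0.076), that of TGFBR3 (adjusted p up to 0.160) and that of DKK3 (adjusted p up to 0.312, library totals included). Of the same settings, 1 ended that of SMAD5 (adjusted p up to 0.184).

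Of 11 Notch genes 3 were higher and 1 lower (median -0.003, and 0 to 3 higher and 0 to 3 lower in the other settings). By library the calls were 3 higher and 0 lower in the later organoids and 0 higher and 0 lower in the early organoids. The ligand gene JAG2 was at 297 and 64.1 CPM in the later and early organoids, against 21.9 and 23.4 CPM in tissue (log2 change 2.62, adjusted p = 0.0049). The ligand gene DLL1, one of the entries that stand apart, was at 97.1 and 7.77 CPM in the later and early organoids, against 0 and 0 CPM in tissue (at least 5.29-fold higher, adjusted p = 0.022). NRARP, a feedback target, was at 115 and 44.7 CPM in the later and early organoids, against 26.8 and 15.6 CPM in tissue (log2 change 1.62, adjusted p = 0.035). HEYL, a target repressor, was at 0 and 0 CPM in the later and early organoids, against 19.5 and 15.6 CPM in tissue (at least 4.20-fold lower, adjusted p = 0.032). In the cAMP list 1 of 18 was higher and 1 lower (median -0.51, and 0 to 3 higher and 0 to 2 lower in the other settings). Both counts are near the shares over all tested genes (6.73% higher and 4.5% lower). RGS2, a regulator of G proteins, was at 42.5 and 289 CPM in the later and early organoids, against 24.3 and 7.79 CPM in tissue (log2 change 2.52, adjusted p = 0.011). The kinase gene SIK1 was at 0 and 1.94 CPM in the later and early organoids, against 24.3 and 31.2 CPM in tissue (17.6-fold lower, counting interval 2.68 to 746, adjusted p = 0.0091). Among 20 immediate early and heat shock genes 2 were higher and 1 lower (median -0.40, and 1 to 3 higher and 0 to 3 lower in the other settings). HSPA5, the main chaperone of the endoplasmic reticulum, was at 1984 CPM in the later and 651 CPM in the early organoids, against 148 and 226 CPM in tissue (log2 change 2.63 ± 0.36 SE, adjusted p = 7.55e-05). The early response gene EGR2 was at 36.4 and 11.7 CPM in the later and early organoids, against 87.5 and 85.7 CPM in tissue (log2 change -2.07, adjusted p = 0.029). With 1 library left out, the highest adjusted p where a call was lost was 0.160 for JAG2 and 0.236 for DLL1 without tissue replicate 1 or the later organoids. It was 0.472 for RGS2 and 0.076 for SIK1 without the early organoids, 0.310 for NRARP without tissue replicate 1, tissue replicate 2 or the later organoids, 0.252 for HEYL without tissue replicate 1, the later organoids or the early organoids, and 0.399 for EGR2 without tissue replicate 1, tissue replicate 2 or the early organoids. Among settings with all 4 libraries at full depth, 7 ended the call of NRARP (adjusted p up to 0.261, both other scalings included). In this group, 1 each ended that of HEYL (adjusted p up to 0.067), that of SIK1 (adjusted p up to 0.055) and that of EGR2 (adjusted p up to 0.112).

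Of 15 cytokine genes tested, 4 were lower and 1 higher (median -0.22, bounded -0.13, and 0 to 3 higher and 0 to 5 lower in the other settings), and by library the calls were 0 higher and 0 lower in the later organoids and 3 higher and 3 lower in the early organoids. The skin-homing chemokine gene CCL27 was at 24.3 and 1.94 CPM in the later and early organoids, against 77.8 and 46.7 CPM in tissue (log2 change -3.22, adjusted p = 0.010). IL36RN, the antagonist of interleukin 36, was at 36.4 CPM in the later and 5.83 CPM in the early organoids, against 260.2 and 709 CPM in tissue (log2 change -5.00 ± 1.22 SE, adjusted p = 0.011). The decoy receptor gene IL1R2 was at 6.07 and 21.4 CPM in the later and early organoids, against 233 and 125 CPM in tissue (log2 change -4.02, adjusted p = 0.013). CXCL14 was at 783 and 173 CPM in the later and early organoids, against 2023 and 1503 CPM in tissue (log2 change -2.26, adjusted p = 0.038). The member called higher was PTGES, which makes prostaglandin E2, at 48.5 and 142 CPM in the later and early organoids, against 4.86 and 0 CPM in tissue (32.1-fold higher, counting interval 8.62 to 270.0, adjusted p = 0.019). None of 13 interferon response genes was called (median -2.99, bounded -1.55, and 0 higher and 0 to 1 lower in the other settings), nor any of 13 simple epithelial keratins and tight junction genes (median -0.04, and 0 higher and 0 to 1 lower in the other settings). In the clock list 1 of 16 was higher and 3 lower (median -1.71, and 0 to 1 higher and 1 to 3 lower in the other settings). Of the lower genes, NR1D2 was at 0 and 5.83 CPM in the later and early organoids, against 38.9 and 54.5 CPM in tissue (9.66-fold lower, counting interval 2.92 to 50.2, adjusted p = 0.0027), HLF at 0 and 0 CPM in the later and early organoids, against 14.6 and 38.9 CPM in tissue (at least 4.62-fold lower, adjusted p = 0.036), and RORA is given above. ARNTL, the one called higher, is an entry that stands apart. Calls lost with 1 library left out had a highest adjusted p of 0.480 for CXCL14 and 0.163 for PTGES without tissue replicate 1, tissue replicate 2 or the early organoids. It was 0.401 for CCL27 without tissue replicate 1 or the early organoids, 0.180 for IL36RN without tissue replicate 2 or the early organoids, 0.166 for IL1R2 without tissue replicate 1, the later organoids or the early organoids, and 0.258 for HLF without tissue replicate 1, tissue replicate 2, the later organoids or the early organoids. Of the settings without a left-out library or thinning, 3 ended the call of CXCL14 (adjusted p up to 0.099). Of these, 1 ended that of HLF (adjusted p up to 0.054).

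Summed marker levels of fibroblasts, smooth muscle and Langerhans cells stood below both tissue libraries in both organoid libraries, while a minority of the single markers was called. The 21 fibroblast genes in the files summed to 1096 CPM in the later and 574 CPM in the early organoids, against 6099.7 and 3199 CPM in tissue (unscaled), while follicular organoids stood at 330.5 to 633.5 CPM. Of 20 tested, 5 were lower and 0 higher (median -2.00, bounded -1.89, and 0 higher and 3 to 7 lower in the other settings), and 3 were lower without tissue replicate 1 (median -0.31). The matrix proteoglycan DCN was at 243 CPM in the later and 35.0 CPM in the early organoids, against 1622 and 662 CPM in tissue (log2 change -3.64 ± 0.49 SE, adjusted p = 8.85e-05). The collagen gene COL3A1 was at 139.5 and 23.3 CPM in the later and early organoids, against 890.1 and 382 CPM in tissue (log2 change -3.50, adjusted p = 0.0040). MFAP5, a microfibril protein, had 0 counts in both organoids, against 63.2 and 38.9 CPM in tissue, at least 13.0-fold lower. Smooth muscle and pericyte genes summed to 409 CPM in the later and 86.9 CPM in the early organoids, against 1438 and 1114 CPM in tissue, with 3 of 8 tested lower (median -2.75, and 0 higher and 0 to 5 lower in the other settings). By library the smooth muscle calls were 0 higher and 0 lower in the later organoids and 0 higher and 4 lower in the early organoids. Without the early organoids 0 were lower (median -0.96), and without the later organoids 4 were (median -3.97). The smooth muscle myosin gene MYH11 was at 91.0 and 1.94 CPM in the later and early organoids, against 163 and 125 CPM in tissue (log2 change -3.42, adjusted p = 0.00075). In each of these lists the later library stood above the early one. Where leaving out 1 library ended a call, the highest adjusted p was 0.175 for COL3A1 without tissue replicate 1 or the early organoids. It was 0.538 for MYH11 without the early organoids. Of the settings with all 4 libraries unthinned, 2 ended the call of MYH11 (adjusted p up to 0.124).

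Genes of Langerhans cells and antigen presentation summed to 81.9 CPM in the later and 80.5 CPM in the early organoids, against 1210.2 and 1268 CPM in tissue, and the number of members at 0 counts was 19 and 20 in the later and early organoids, against 7 and 14 in tissue. EPCAM, also in the list of simple epithelial and tight junction genes, held 2 of the 18 counts in the later organoids. It held 25 of the 38 in the early organoids, and 40 of 398 and 5 of 107 in tissue. The near-equal organoid sums thus do not mean equal levels of the other members. Of 11 tested, 3 were lower (median -4.41, bounded -2.07, and 0 higher and 2 to 5 lower in the other settings). CD74, the chaperone of MHC class II, was at 72.8 CPM in the later and 9.71 CPM in the early organoids, against 547 and 592 CPM in tissue (log2 change -4.41 ± 0.62 SE, adjusted p = 0.00016). The class II gene DLA-DRA was at 12.1 and 1.94 CPM in the later and early organoids, against 153 and 85.7 CPM in tissue (31.1-fold lower, counting interval 10.2 to 154, adjusted p = 0.00035). TYROBP, an adaptor of myeloid cells, had 0 counts in both organoids, at least 12.6-fold lower. CD207, the defining marker of Langerhans cells, was not among the gene names used here. Endothelial genes summed to 13.6 CPM in the later and 6.40 CPM in the early organoids, against 48.7 and 94.8 CPM in tissue, melanocyte genes to 59.1 CPM in the later and 31.8 CPM in the early organoids, against 192 and 23.7 CPM in tissue, and genes of Merkel, nerve and Schwann cells to 22.7 CPM in the later and 38.1 CPM in the early organoids, against 88.2 and 59.2 CPM in tissue. None of the 8, 7 and 4 tested members of these 3 lists was called, with medians of -4.16, bounded 0, -2.98, bounded -1.07 and -2.79, bounded -0.04. The part of these cells in the differences between organoids and tissue was not tested. Leaving out 1 library ended some of these calls, and the highest adjusted p was then 0.088 for TYROBP without tissue replicate 1 or the early organoids.

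Follicle genes were also looked at as a check of the interfollicular label. Genes of the hair shaft and root sheath summed to 2097 CPM in the later and 481 CPM in the early organoids, against 2746 and 332 CPM in tissue, while follicular organoids stood at 138.3 to 216.8 CPM and follicle tissue at 19849 and 21876 CPM. Their number at 0 counts was 3 and 8 in the later and early organoids, against 5 and 15 in tissue. RNA of hair genes was present in all 4 libraries, most in tissue replicate 1 and the later organoids. Of 27 tested none was called against tissue (median -0.31, and 0 to 4 higher and 0 to 4 lower in the other settings), but without tissue replicate 1 the count was 4 higher, and without tissue replicate 2 it was 4 lower. Genes of follicle stem cells summed to 1578 CPM in the later and 3054 CPM in the early organoids, against 2219.7 and 4313 CPM in tissue, with 2 of 20 higher and 1 lower (median -0.96, bounded -0.33, and 1 to 2 higher and 0 to 4 lower in the other settings). Over all tested genes, 6.73% were called higher and 4.5% lower. KRT15 held 141 of the 347 counts of this list in the later and 732 of 1441 in the early organoids. In tissue it held 405 of 730 and 276 of 364. KRT15 is also in the basal list, so this sum does not tell follicle stem cells from basal keratinocytes. LGR5 had 0 and 1 counts in the later and early organoids, against 1 and 0 in tissue, and CD34 1 and 0, against 9 and 1. Sebaceous and adipocyte genes summed to 514 CPM in the later and 258 CPM in the early organoids, against 721 and 770.2 CPM in tissue. Of 17 tested 1 was lower, the sebaceous duct keratin gene KRT79 at 97.1 and 23.3 CPM in the later and early organoids, against 124 and 257 CPM in tissue (log2 change -1.94, adjusted p = 0.036; list median 0, and 0 higher and 0 to 2 lower in the other settings). With 1 library left out, the highest adjusted p where a call was lost was 0.511 for KRT79 without tissue replicate 2 or the early organoids. Among settings with all 4 libraries at full depth, 3 ended the call of KRT79 (adjusted p up to 0.148).

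**Figure D4:**
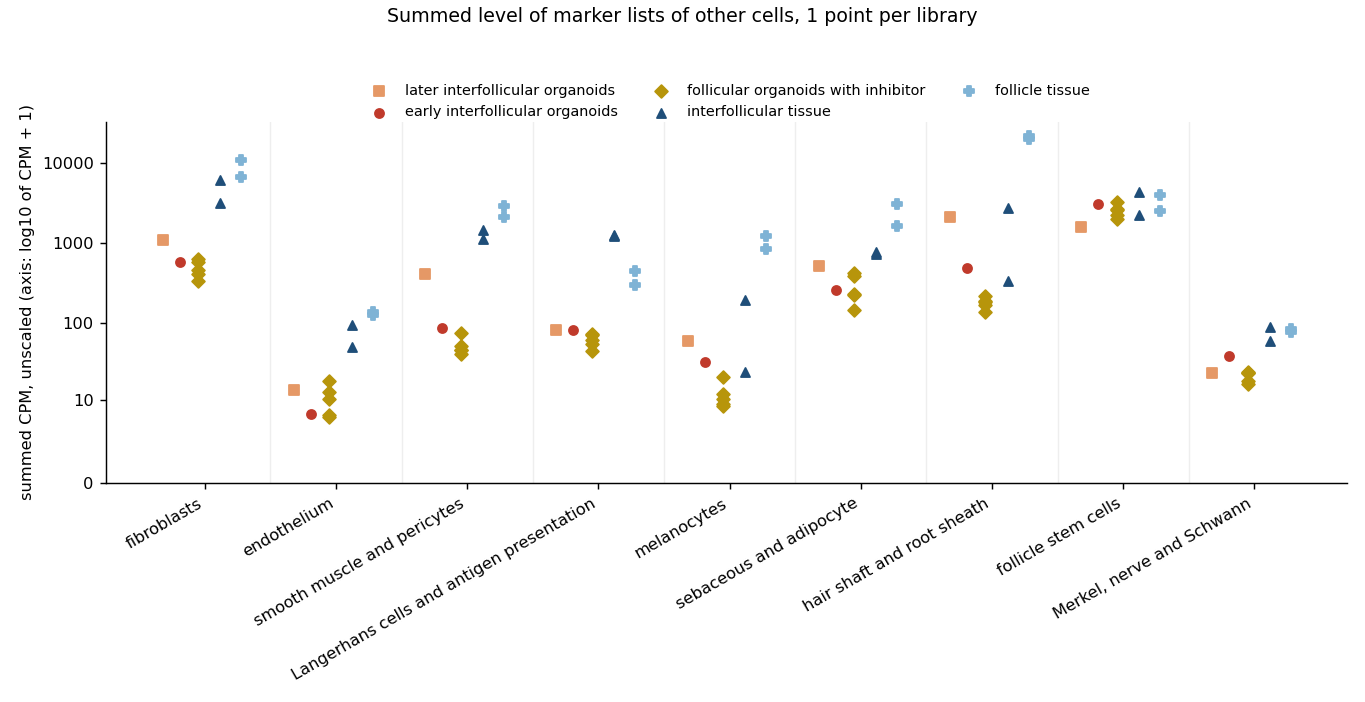
Summed unscaled CPM of the marker lists of other cell types, 1 point per library, on a log axis (log10 of CPM + 1), with organoids left of tissue. Fibroblast markers reach 1096 CPM in the later and 574 CPM in the early organoids, against 6099.7 and 3199 CPM in tissue.

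The 10 largest called falls by the rule for naming genes were SERPINA12, PTAR1, NIPAL1, NFATC2, CHMP4C, MFAP5, ANKRD35, TYROBP, F13A1 and DSC1. In 9 of the 10, both organoid libraries had 0 counts, so each fold is a lower bound. SERPINA12, the serpin vaspin, was at 124 and 187 CPM in tissue and at least 31.5-fold lower in the organoids. The prenyltransferase subunit gene PTAR1 was at 73.0 and 109 CPM in tissue (at least 18.5-fold lower). The magnesium transporter gene NIPAL1 was at 97.3 and 23.4 CPM (at least 18.1-fold lower). The transcription factor gene NFATC2 was at 65.7 and 62.3 CPM (at least 14.7-fold lower). CHMP4C, a subunit of the ESCRT-III membrane-cutting complex, was at 60.8 and 70.1 CPM (at least 14.3-fold lower). ANKRD35, which encodes an ankyrin repeat protein, was at 34.0 and 77.9 CPM (at least 10.1-fold lower). F13A1, the coagulation factor XIII A chain made by macrophages and dermal dendritic cells, was at 73.0 and 7.79 CPM (at least 13.0-fold lower). Calls lost with 1 library left out had a highest adjusted p of 0.236 for NIPAL1, 0.369 for F13A1 and 0.088 for TYROBP without tissue replicate 1 or the early organoids. It was 0.174 for SERPINA12 without tissue replicate 1, tissue replicate 2, the later organoids or the early organoids, and 0.181 for ANKRD35 without tissue replicate 2 or the early organoids.

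Of the 10 largest called rises, 9 were entries that stand apart in the later library (ARNTL, RAB5C, CELF4, CAPZB, ZNF207, H2AC8, SLC25A42, R3HDM1 and KLF7), and the other was FOSL1. All 10 had 0 counts in both tissue replicates, with bounds from at least 6.62-fold higher for KLF7 to at least 17.7-fold higher for ARNTL, the clock transcription factor BMAL1, at 249 CPM in the later and 50.5 CPM in the early organoids, against 0 and 0 CPM in tissue. Outside these entries, the 15 largest rises were listed after their values were seen. Among them were FOSL1, ERO1A, H2AC6, HAUS1, TATDN1, RBMX, AFAP1, GTF2IRD1, MAPK8, PFKL, RNF130, CDA, VEGFA and IGF2BP2. In 12 of the 15 both tissue replicates had 0 counts. IGF2BP2, an RNA-binding protein of the insulin-like growth factor 2 pathway, was at 237 CPM in the later and 97.1 CPM in the early organoids, against 2.43 and 7.79 CPM in tissue (35.3-fold higher, counting interval 9.50 to 296, adjusted p = 0.00012). CDA, cytidine deaminase, was at 152 CPM in the later and 1280.0 CPM in the early organoids, against 9.73 and 7.79 CPM in tissue (log2 change 5.57, adjusted p = 0.023). H2AC6 and H2AC8 belong to a family of near-identical histone genes, so their separate values are uncertain. Where leaving out 1 library ended a call, the highest adjusted p was 0.213 for CELF4, 0.123 for CAPZB, 0.139 for SLC25A42, 0.157 for R3HDM1, 0.236 for KLF7, 0.205 for H2AC6, 0.232 for TATDN1 and 0.217 for RBMX without tissue replicate 1 or the later organoids. It was 0.236 for H2AC8, 0.341 for GTF2IRD1 and 0.291 for MAPK8 without tissue replicate 1, tissue replicate 2 or the later organoids, 0.128 for ZNF207 and 0.052 for FOSL1 without tissue replicate 1, 0.290 for HAUS1 and 0.33 for RNF130 without tissue replicate 1, tissue replicate 2, the later organoids or the early organoids, 0.246 for AFAP1 without tissue replicate 1 or the early organoids, and 0.214 for CDA without tissue replicate 1, tissue replicate 2 or the early organoids. Of the settings with all 4 libraries unthinned, 7 ended the call of RNF130 (adjusted p up to 0.090, both other scalings included). Among these settings, 6 ended that of GTF2IRD1 (adjusted p up to 0.084, both other scalings included), and 2 each ended that of H2AC8 (adjusted p up to 0.245) and that of MAPK8 (adjusted p up to 0.077).

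The later library, set directly against the early one, had 202 genes higher and 6 lower (2.1% of genes tested, 2.04% higher and 0.0607% lower), with 106 of the 202 among the entries that stand apart. This compares 2 single libraries. Without these entries 20 genes were higher and 1 lower, and with library totals 7 were higher and 3 lower. Among the genes higher in the later organoids was MYH11, given above (46.9-fold higher, counting interval 7.21 to 1972, adjusted p = 0.010). The root sheath keratin gene KRT27 was at 109 CPM in the later and 3.88 CPM in the early organoids (28.1-fold higher, counting interval 6.73 to 249.8, adjusted p = 0.029). LHX2, a transcription factor of follicle stem cells, was at 60.7 CPM in the later and 0 CPM in the early organoids (at least 10.4-fold higher, adjusted p = 0.029). CRNN, the cornulin gene of the upper epithelial layers, was at 30.3 CPM in the later and 0 CPM in the early organoids (at least 5.21-fold higher, adjusted p = 0.037). FBRS was at 146 CPM in the later and 3.88 CPM in the early organoids (37.5-fold higher, counting interval 9.30 to 327, adjusted p = 0.0056) and SRGAP3 at 66.7 CPM in the later and 1.94 CPM in the early organoids (34.4-fold higher, counting interval 4.99 to 1479, adjusted p = 0.041).

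All 6 genes lower in the later organoids are given here. SPP1, the secreted matrix protein osteopontin, was at 12.1 CPM in the later and 549.7 CPM in the early organoids (45.3-fold lower, counting interval 12.4 to 376, adjusted p = 0.021), against 7.30 and 0 CPM in tissue. ETS1, a transcription factor, was at 12.1 CPM in the later and 132 CPM in the early organoids (10.9-fold lower, counting interval 2.90 to 91.7, adjusted p = 0.023). NDFIP2, an adaptor of ubiquitin ligases, was at 6.07 CPM in the later and 91.3 CPM in the early organoids (15.1-fold lower, counting interval 2.57 to 607, adjusted p = 0.023). WDR5, a subunit of histone methyltransferase complexes, was at 0 CPM in the later and 46.6 CPM in the early organoids (at least 2.56-fold lower, adjusted p = 0.043). TMA16 was at 0 CPM in the later and 107 CPM in the early organoids (at least 5.87-fold lower, adjusted p = 0.010) and MESDC2, a chaperone of lipoprotein receptors, at 24.3 CPM in the later and 132 CPM in the early organoids (log2 difference -2.44, adjusted p = 0.047). All 12 genes named from this contrast lost their calls when the libraries were thinned to the shallowest, with adjusted p-values of 0.160 (SPP1) to 0.853 (KRT27). Without the entries that stand apart, MYH11, FBRS and TMA16 kept their calls, and the other 9 did not (adjusted p = 0.0530 to 0.0974). Of the genes described first, KRT10 was at 1177 CPM in the later and 249 CPM in the early organoids and SLC2A1 at 1395 CPM in the later and 425 CPM in the early organoids, and neither passed this direct test (adjusted p = 0.298 and 0.443).

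The organoid-to-tissue difference of the interfollicular libraries was set against the organoid-to-tissue difference of the follicular ones in the same fit, in a test of the difference between differences. It was higher for interfollicular origin in 347 genes and lower in 45 (3.96% of genes tested, 3.51% higher and 0.455% lower). The entries that stand apart made up 116 of the 347, and without them the counts were 211 and 30. Without the later library, with follicular organoids of early passage only, 78 genes were called in all, and without the early library 628. With library totals 304 genes were higher and 114 lower. Of 24 suprabasal genes 3 had a lower difference for interfollicular origin and 0 a higher one. KRT10 was at 548 to 1380.0 CPM in the follicular organoids, against 548 and 789 CPM in follicle tissue (log2 difference -4.76, adjusted p = 0.0023). DSG1 also differed (log2 difference -3.02, adjusted p = 0.0079), with 184 to 297 CPM in the follicular organoids, against 328 and 224 CPM in follicle tissue, as did SCEL (log2 difference -3.73, adjusted p = 0.0081), with 18.6 to 34.3 CPM in the follicular organoids, against 22.5 and 27.9 CPM in follicle tissue. KRTDAP was at 936 to 5456 CPM in the follicular organoids, against 409 and 432 CPM in follicle tissue (log2 difference -3.59, adjusted p = 0.035). CDH3 was at 393 to 803 CPM in the follicular organoids, against 157 and 243 CPM in follicle tissue, and did not pass this test (log2 difference 1.31, adjusted p = 0.301). SLC2A1 was at 804 to 1237 CPM in the follicular organoids, against 45.0 and 53.9 CPM in follicle tissue, and did not pass it either (log2 difference 0.47, adjusted p = 0.899). The difference in KRT10 stayed past the threshold with each library left out in turn. Without the later library the adjusted p was 0.0645 for DSG1, 0.111 for SCEL and 0.139 for KRTDAP. Without tissue replicate 1 it was 0.0647, 0.0666 and 0.0988 for the same genes, and without follicle tissue replicate 2 it was 0.0686 for DSG1 and 0.136 for KRTDAP.

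COL17A1, the transmembrane collagen of hemidesmosomes, was at 376 and 455 CPM in the later and early organoids, against 596 and 397 CPM in tissue, and at 724 to 1281 CPM in the follicular organoids, against 148 and 88.1 CPM in follicle tissue (log2 difference -3.33, adjusted p = 0.0033). DEGS1, a desaturase of ceramide synthesis, had a lower difference for interfollicular origin (log2 difference -2.58, adjusted p = 0.014), and the metallothionein gene MT1E a higher one (log2 difference 3.69, adjusted p = 0.024). Of 27 hair genes 22 had a higher difference for interfollicular origin and 0 a lower one (median log2 difference 6.37, against -0.09 over all tested genes), with KRT26 and KRT27 as examples (log2 difference 6.03, adjusted p = 0.0074 and log2 difference 4.82, adjusted p = 0.019). Of 17 sebaceous and adipocyte genes 8 had a higher difference, and so had 6 of 20 fibroblast genes and 3 of 8 smooth muscle genes. Unscaled sums of these lists were 2746 and 332 CPM in interfollicular tissue, against 19849 and 21876 CPM in follicle tissue, for hair genes, and 721 and 770.2 CPM against 1624 and 3110.5 CPM for sebaceous and adipocyte genes. They were 6099.7 and 3199 CPM in interfollicular tissue, against 10849 and 6650 CPM in follicle tissue, for fibroblast genes, and 1438 and 1114 CPM against 2881 and 2118 CPM for smooth muscle genes. Without the later library the adjusted p was 0.0923 for COL17A1, 0.158 for DEGS1, 0.0958 for MT1E, 0.272 for KRT26 and 0.594 for KRT27. DEGS1 and MT1E also lost their calls without follicle tissue replicate 2 (adjusted p = 0.060 and 0.143).

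By the rule for naming genes, the largest higher differences were in CELF4, PLIN4, NAT8L, ARNTL, GTF2IRD1 and R3HDM1, of which CELF4, ARNTL and R3HDM1 stand apart in the later library. NAT8L, which makes N-acetylaspartate, was at 139.5 CPM in the later and 9.71 CPM in the early organoids, against 2.43 and 0 CPM in tissue, and at 0 to 0.678 CPM in the follicular organoids, against 3.97 and 26.0 CPM in follicle tissue (log2 difference 10.22, adjusted p = 0.00050). Where a group holds few or 0 counts, the size of a fitted difference depends on the small count that the fit adds, so these are read as directions. The largest lower differences were in SCUBE2, UFL1, NADK2, MSH3, MET and PDCL3. MET, the receptor of hepatocyte growth factor, was at 0 CPM in the later and 33.0 CPM in the early organoids, against 17.02 and 15.6 CPM in tissue, and at 26.2 to 46.1 CPM in the follicular organoids, against 3.97 and 5.70 CPM in follicle tissue (log2 difference -5.82, adjusted p = 0.028). NADK2, the mitochondrial NAD kinase, was at 0 CPM in the later and 1.94 CPM in the early organoids, against 97.3 and 46.7 CPM in tissue (log2 difference -6.39, adjusted p = 0.012). Without the later library, 11 of these 12 genes lost their calls, with adjusted p-values of 0.0957 (SCUBE2) to 0.421 (MET), and ARNTL kept its call.

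**Figure D5:**
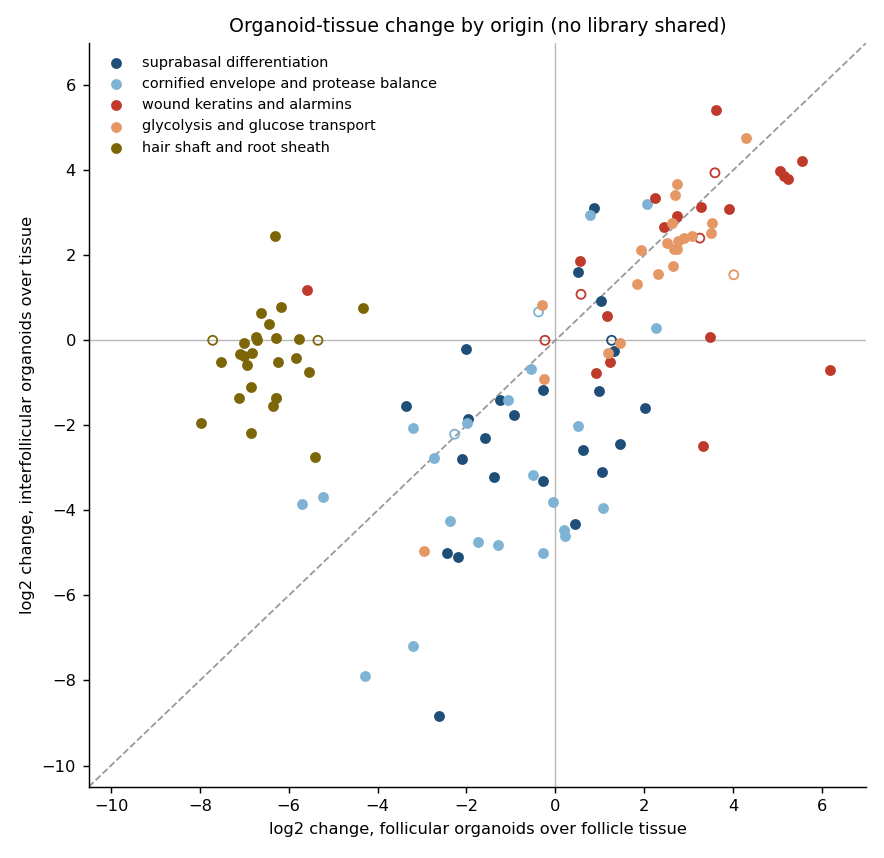
Log2 change of each tested member of 5 gene lists, organoids over tissue, with interfollicular origin on the vertical axis and follicular origin on the horizontal axis, 1 point per gene. The dashed line marks equal change, open points are genes with 0 counts on one interfollicular side, drawn at their interfollicular bound, and all follicular values are as fitted. All tested hair shaft and root sheath genes lie above the dashed line and left of 0, while in each of the 4 other lists most genes lie below the dashed line. In the wound and glycolysis lists 0 genes passed the test between origins. Against follicle tissue, follicular organoids had 13 of 22 wound genes higher and 1 lower, and 17 of 22 glycolysis genes higher and 1 lower. Over all 9888 tested genes, 845 were higher and 1671 lower there.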

How the data were processed

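Bulk RNA of dog organoids and tissue was measured by CEL-seq2 in 23 libraries of 12 groups. In the authors' deposited files, 4.91 to 10.6% of a library's lines are fractional for a reason not given in the sources used here, so the authors' deposited values were handled like expected counts and rounded to whole numbers. Reads were aligned with BWA 0.6.2-r126 and the build was CanFam3.1, per the submitters' processing notes. How reads were counted, with which annotation, and whether molecular barcodes were collapsed is not given in the sources used here. Entries without a gene (0.46 to 2.16% of a library's counts) were left out, and 156 tested genes that the files of 6 differentiation libraries do not list entered as 0.

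The main tool was edgeR 4.0.16 (R 4.3.3), with limma 3.58.1 and DESeq2 1.42.0 as an alternative. The default filter on the 12 groups left 9888 genes. The quasi-likelihood fit had a mean for each group, 11 residual degrees of freedom and a common dispersion of 0.0986. The pooled comparison took the plain mean of the log2 means of both organoid groups. An SE is the size of a log2 change over the root of its F statistic. Floors and counting intervals are 95% exact ones, while fold bounds leave out the counting error of the higher side. PCR reads without collapsed barcodes are not independent molecules.

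Named genes were CDH3, SLC2A1, KRT10 and DSG1, the 10 largest called rises and 10 largest called falls with at least 20 CPM and no overlap, up to 4 called members of each list in each direction by p (2 where none was called), and up to 6 genes in each direction from the later-early and origin contrasts. A few genes are not reported here. Other genes named in the text were chosen after their values were seen. The comparison, the markers and the gene lists were chosen with earlier results of these data known. The fits were also run on simulated data in which all libraries shared the fitted spread of each gene. Such data cannot tell whether a lone organoid library varies like the replicated groups. Alternatives were other scalings, filters and tools, other sets of libraries, a replicate block, thinning and leaving out each library.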

Additional observations from a re-analysis of the deposited data

Results flagged for a closer look

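In 392 genes the organoid-to-tissue difference of interfollicular origin differed from that of follicular origin, by edgeR's quasi-likelihood test of the difference itself. Among the genes named in the text, 19 had a higher and 13 a lower difference for interfollicular origin, given here on the log2 scale. Their explanation was not tested.

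The lower differences were -4.76 in KRT10, -3.02 in DSG1, -3.73 in SCEL, -3.59 in KRTDAP, -3.33 in COL17A1, -2.58 in DEGS1 and -5.21 in IL36RN. Those in SCUBE2 (-9.19), UFL1 (-7.74), NADK2 (-6.39), MSH3 (-6.15), MET (-5.82) and PDCL3 (-5.66) involve libraries with few or 0 counts.

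Higher differences were found in genes of follicle, glands and dermis, at 6.03 in KRT26, 4.82 in KRT27, 4.02 in KRT79, 2.64 in DCN, 4.76 in COL1A1 and 4.96 in ACTA2. They were also found in APCDD1 (2.74), CTNNB1 (2.96), MT1E (3.69), SPP1 (6.86), PLIN4 (11.38), NAT8L (10.22) and GTF2IRD1 (9.69). Those in KRT26, KRT27, SPP1, PLIN4, NAT8L and GTF2IRD1 involve libraries with few or 0 counts, so they are read as directions. PLIN4 had 4 counts in the organoids and 0 in tissue. ARNTL (10.13), RAB5C (8.03), CELF4 (11.96), ZNF207 (8.34), R3HDM1 (8.91) and ATP5G3 (2.54) are entries that stand apart in the later organoid library. All of these but ATP5G3 had 0 counts in both tissue replicates, so their sizes are also read as directions.

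No group compared here has 4 or more libraries, so no library was tested as an outlier within its group.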

How the results depend on the processing

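Called genes numbered 1110 in the pooled comparison, 709 for the early and 746 for the later organoids, 208 for later against early, and 392 between origins. Under the other scalings, filters and tools these counts stayed within 1.5 times, except for later against early: library totals gave 10, a minimum of 10 counts 323 and DESeq2's test 414. Dropping the differentiation libraries (17 libraries) gave 1165 for the early organoids and 346 for later against early, and fitting the 4 libraries alone gave 679 in the pooled comparison. With only the same 4 libraries thinned to the shallowest of them, in a single random draw, the 5 counts were 420, 149, 383, 11 and 170. The counts were thus lower at lower depth. Without the entries that stand apart, an alternative added after seeing the data, the later organoids had 454, later against early 21 and the origins 241. The cause of these shifts was not tested.

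With 1 library left out, the pooled count ran from 414 (tissue replicate 1) to 909, the early one from 166 to 567, and the later one from 461 to 641. The origin count ran from 254 (follicle tissue replicate 2) to 428, and was 78 without the later and 628 without the early interfollicular organoids, each against follicular organoids of the same passage. Over the same leave-outs, log2 changes that did not pass the test in the pooled comparison changed sign in MITF (-7.62 to 2.95), KRT26 (-3.04 to 7.37), KRT27 (-3.93 to 1.42, and 0.85 without the early organoids), KRT15 (-0.95 to 0.21), TP63 (-1.02 to 0.11) and LGR5 (-4.19 to 2.16, and 0.096 without the later organoids). Among the negative values, those without tissue replicate 2 passed for MITF, KRT26 and KRT27 (adjusted p = 0.033, 0.031 and 0.031), and so did KRT27 without the later organoids (0.029). Of 96 calls among the genes named by the rule in the pooled comparison, 32 were kept in every setting that held the gene. ARNTL and ATP5G3 are among the 32 and stand apart, so the setting without such entries could not try them. Thinning lost the most calls (53), followed by leaving out tissue replicate 1 and then the early organoids. Lists whose median turned negative with library totals were CDK inhibitors and D cyclins (-0.27), cholesterol and fatty acid synthesis (-0.35), hemidesmosomes (-0.27) and mitochondrially encoded genes (-0.03), and the sebaceous and adipocyte list, with a median of 0, went to -0.38.

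The replicate numbers of the labels were tested as a block. Deviations of same-numbered libraries correlated at 0.060 between interfollicular and follicle tissue and at 0.053 between interfollicular tissue and whole skin. Between follicle tissue and whole skin the correlation was 0.12. These values do not tell whether same-numbered libraries share a dog, and no organoid library entered them. With the block, the counts were 883 pooled, 513 early, 652 later, 102 later against early and 330 between origins.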

Other observations

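Further members of the lists are given here with their values. Of the genes called, the stress-induced DDIT4, which restrains mTOR, was at 801 CPM in the later and 115 CPM in the early organoids, against 41.3 and 31.2 CPM in tissue (log2 change 3.00, adjusted p = 0.029). The chaperone gene HSPA8 was at 1031 and 2224 CPM in the later and early organoids, against 705 and 639 CPM in tissue (log2 change 1.17, adjusted p = 0.046). NDUFS1, a subunit of respiratory complex I, was at 72.8 CPM in the later and 71.9 CPM in the early organoids, against 17.02 and 7.79 CPM in tissue (log2 change 2.32, adjusted p = 0.0070). CYC1, a cytochrome of complex III, was at 42.5 and 77.7 CPM in the later and early organoids, against 9.73 and 7.79 CPM in tissue (log2 change 2.63, adjusted p = 0.011). PGD, an enzyme of the pentose phosphate pathway, was at 255 CPM in the later and 505 CPM in the early organoids, against 60.8 and 117 CPM in tissue (log2 change 2.10, adjusted p = 0.0026). Of the smooth muscle genes, another pair was lower. ACTG2, an actin, was at 36.4 and 1.94 CPM in the later and early organoids, against 134 and 140.2 CPM in tissue (log2 change -3.98, adjusted p = 0.00057). CNN1, calponin, was at 6.07 and 0 CPM in the later and early organoids, against 31.6 and 7.79 CPM in tissue (17.6-fold lower, counting interval 2.68 to 746, adjusted p = 0.043). NFIB, a transcription factor of follicle stem cells, was at 84.9 and 71.9 CPM in the later and early organoids, against 241 and 171 CPM in tissue (log2 change -1.42, adjusted p = 0.032). Leaving out 1 library ended some of these calls, and the highest adjusted p was then 0.131 for CYC1, 0.075 for PGD and 0.516 for CNN1 without tissue replicate 1 or the early organoids. It was 0.326 for DDIT4 without tissue replicate 1, tissue replicate 2 or the later organoids, 0.476 for HSPA8 without tissue replicate 1, tissue replicate 2 or the early organoids, 0.052 for NDUFS1 without tissue replicate 1, 0.149 for ACTG2 without the early organoids, and 0.253 for NFIB without tissue replicate 1, the later organoids or the early organoids. Of the settings that keep all 4 libraries and their depth, 6 ended the call of HSPA8 (adjusted p up to 0.371, both other scalings included). Of the same settings, 4 ended that of CNN1 (adjusted p up to 0.105), 3 ended that of NFIB (adjusted p up to 0.261), and 1 each ended that of DDIT4 (adjusted p up to 0.068, library totals), that of NDUFS1 (adjusted p up to 0.099), that of CYC1 (adjusted p up to 0.068) and that of PGD (adjusted p up to 0.072).

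Other members did not pass the test. The claudin genes CLDN1 and CLDN4, of tight junctions, were at 42.5 and 33.0 CPM in the later and early organoids, against 253 and 93.5 CPM in tissue, and at 36.4 and 19.4 CPM in the later and early organoids, against 82.7 and 93.5 CPM in tissue (adjusted p = 0.122 and 0.175). The S phase genes CCNE1, a cyclin, and TYMS, thymidylate synthase, were at 18.2 and 9.71 CPM in the later and early organoids, against 2.43 and 0 CPM in tissue, and at 54.6 and 58.3 CPM in the later and early organoids, against 21.9 and 7.79 CPM in tissue. The melanocyte regulator MITF was at 6.07 and 0 CPM in the later and early organoids, against 29.2 and 0 CPM in tissue. The stem cell marker LGR5 was at 0 and 1.94 CPM in the later and early organoids, against 2.43 and 0 CPM in tissue. The fibroblast collagen gene COL1A1 was at 152 and 27.2 CPM in the later and early organoids, against 369.6 and 70.1 CPM in tissue (log2 change -1.86, adjusted p = 0.077). The remaining genes named by the rule, DDX58, OAS1, VWF, ESAM, EDNRB, ERBB3, S100B, ND1, ATP8 and CD34, had adjusted p-values between 0.0707 (CD34) and 0.512 (S100B).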
